A study of Danio rerio with 10 samples.

Results

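Chromatin modifiers and high mobility group (HMG) proteins were read in sorted zebrafish somite progenitors with and without a caged morpholino against *spadetail*. The members were chosen by name, as every RefSeq transcript record whose gene symbol starts with hmga, hmgb, hmgn, smarc, chd and a number, hdac, kdm, kmt, setd, dnmt, ezh, suz12 or eed. This gave 73 records of 70 genes, out of 14720 records in all. No record matched eed, which was not analysed here. Embryos of the wild-type AB strain were injected at the 1-cell stage and carried caged fluorescein-dextran together with the *spadetail* caged morpholino (spt_cMO, 5 libraries) or caged fluorescein-dextran alone (control, 5 libraries). Both groups were irradiated with 360 nm light through a 100 µm diaphragm over the ventral somite progenitors at 6 hours post-fertilization (hpf), and the cells with uncaged fluorescein were collected by sorting 3 hours later. The *spadetail* gene is now called *tbx16* and encodes a T-box factor of mesoderm progenitors. No morpholino was given to control embryos, so what follows from losing *spadetail* and what follows from any morpholino cannot be told apart. CEL-seq counts tags from transcript 3′ ends, so levels are given as CPM, the count relative to the scaled total of the library, and are not divided by transcript length.

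DNA in the nucleus is wrapped around histones, and the genes described here encode proteins that act on that packaging. HMG proteins are small and abundant: HMGA proteins bind AT-rich DNA through AT-hooks, HMGB proteins bend DNA, and HMGN proteins bind the nucleosome itself. SMARC and CHD proteins belong to complexes that use ATP to move nucleosomes, HDAC, KDM, KMT and SETD proteins remove or add marks on histones and other proteins, DNMT proteins methylate DNA, and EZH and SUZ12 are subunits of Polycomb repressive complex 2 (PRC2), which methylates histone H3 at lysine 27.

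The libraries held between 2036973 and 9374914 counts in spt_cMO and between 3365785 and 7968446 in control. *tbx16* was counted at 546, 463, 577, 394 and 652 CPM in spt_cMO libraries 1 to 5, against 421, 321, 364, 391 and 433 CPM in control libraries 1 to 5. All 5 spt_cMO libraries lay above the control of the same number, and 4 lay above every control. The log2 fold change was 0.45 (SE 0.13, adjusted p = 0.0897 in edgeR's quasi-likelihood test, 0.0172 with a replicate block and 0.0172 to 0.247 over the alternatives). A morpholino need not lower its target's transcript, and the cause of the higher estimate was not tested. The 18 presomitic and paraxial mesoderm markers were all detected and summed to between 3517.5 and 5174 CPM in spt_cMO and between 7248 and 9384 CPM in control. Of the 16 of them tested, 8 fell and 1 rose, and with a replicate block 9 fell and 2 rose, *mespab* and *tbx16* being added (*mespab* adjusted p = 0.414 and, with the block, 0.00386, edgeR's quasi-likelihood test). Of the presomitic and paraxial sum, averaging 4228 CPM in spt_cMO and 8401 CPM in control, *msgn1* alone gave 2029 and 5838 CPM. Markers of other tissues were lower in sum, in shorter lists. The next highest were lateral and intermediate mesoderm, epidermis and enveloping layer, and neural ectoderm, with 9, 8 and 8 symbols. They summed to 434 to 1028, 575 to 884 and 643 to 796 CPM in spt_cMO. In control they summed to 705 to 1516, 451 to 662 and 567 to 659 CPM. The lateral and intermediate sum averaged 638 CPM in spt_cMO and 1063 CPM in control, of which *gata2a* alone gave 491 and 901 CPM. *gata2a* did not pass (log2 fold change -0.88, adjusted p = 0.481 and, with the block, 0.0944, edgeR's quasi-likelihood test). In these other lists 1 of 8 tested neural markers rose, *sox2* (log2 fold change 0.83), and 1 of 4 axial mesoderm markers, *shha* (1.83). Those that fell were *osr1*, 1 of 5 of lateral and intermediate mesoderm (-0.46), and *six4a*, 1 of 3 of muscle progenitors (-0.65). The other tested markers of these lists did not pass, and their estimates had either sign. *shha* was low, averaging 6.23 CPM in spt_cMO and 1.81 CPM in control. The adjusted p of *osr1* was 0.0394 in edgeR's quasi-likelihood test and ran from 0.00732 to 0.519 over the alternatives. No tested marker of epidermis (8 tested), endoderm (3), germ cells (4) or yolk syncytial layer (1, *gata5*) passed. The other 4 yolk syncytial layer markers were too low to be tested. Of 12 proliferation markers, all tested, none passed, with sums of 8235 to 9925 CPM in spt_cMO and 7054 to 8820.2 CPM in control. On the first principal component spt_cMO replicate 2, the shallowest library with 2036973 counts, stood apart from the other libraries. In these bulk samples, fewer cells of a type and less RNA per cell cannot be told apart.

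The HMG families made up most of the members' summed level. All members together took between 3.83% and 4.02% of the counts of a spt_cMO library, against 3.69% to 3.93% in control. The hmga family alone held 34.9% of the members' level, the hmgb family 30.2%, the hmgn family 11.2% and the hdac family 8.8%. The smarc, dnmt, kdm, kmt and chd families held between 1.31% and 4.34% each, setd 0.936%, ezh 0.42% and suz12 0.0295%. By level, 6 members reached a mean of 1000 CPM or more, 25 lay between 100 and 1000 CPM, 18 between 10 and 100, 13 between 1 and 10, and 6 were above 0 but under 1 CPM. The remaining 5 records were at 0 in every library. In a single library taken alone, 0 allows up to 3 counts, or 0.318 CPM in the deepest and 1.47 CPM in the shallowest library. The limit over all libraries together is lower and was not computed. Such a limit covers counting error only.

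**Figure D1:**
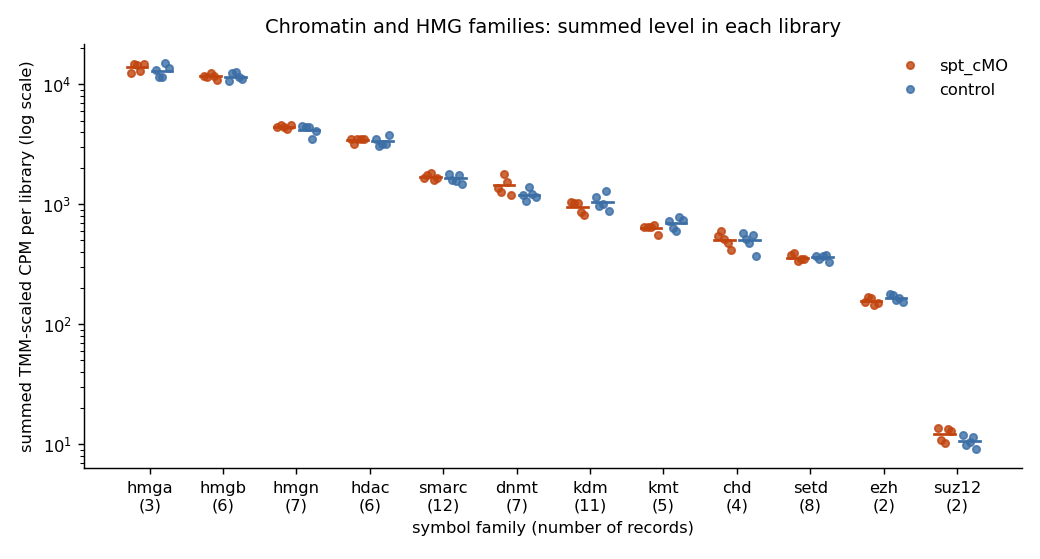
Summed TMM-scaled CPM of each symbol family (log axis), with 1 point per library and a bar at the group mean of 5 libraries; spt_cMO stands left of control within each family. The hmga family averaged 13938 CPM in spt_cMO and 13009 CPM in control and the suz12 family 12.2 CPM in spt_cMO and 10.6 CPM in control, and the groups overlap in every family.

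In several families 1 paralog carried the bulk of the level. *hmga1a*, an AT-hook gene (record NM_213168), averaged 13471 CPM over the 10 libraries and ranked 4 of all 14720 records. Its paralog *hmga1b* averaged 1.86 CPM and *hmga2* 0.349 CPM. *hdac1*, a class I deacetylase of the Sin3 and NuRD complexes, made up between 97.9% and 98.3% of the hdac total in every library. *ezh2*, the PRC2 methyltransferase, averaged 161 CPM, against 0.348 CPM for *ezh1*. Other families were shared out more evenly: *smarcd1* held 25.6% of the smarc total and *setdb1a* 34.2% of the setd total, averaged over libraries.

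Other members were hardly seen. The class IIa deacetylase genes *hdac4* and *hdac9b* averaged 0.343 and 1.34 CPM and the class IV gene *hdac11* 0.211 CPM. *dnmt3aa*, a de novo methyltransferase gene, had a count in 1 library of each group. *smarca2*, an ATPase gene of the SWI/SNF (BAF) complex, was at 0 throughout, while its counterpart *smarca4a* averaged 115 CPM. The demethylase gene *kdm4c*, the ISWI gene *smarca1* and the BAF60 gene *smarcd3b* averaged 1.68, 1.55 and 0.638 CPM. All 4 records of *hmgn3* were at 0. These 12 records, with *hmga1b*, *hmga2* and *ezh1*, are the 15 that were too low to be tested. Across the table every record was at 0 in 86 of 219 genes with 2 or more records (39.3%), against 1225 of 13505 genes with 1 record (9.07%). The part of counting across several records of a gene in the zeros of *hmgn3* was not tested.

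**Figure D2:**
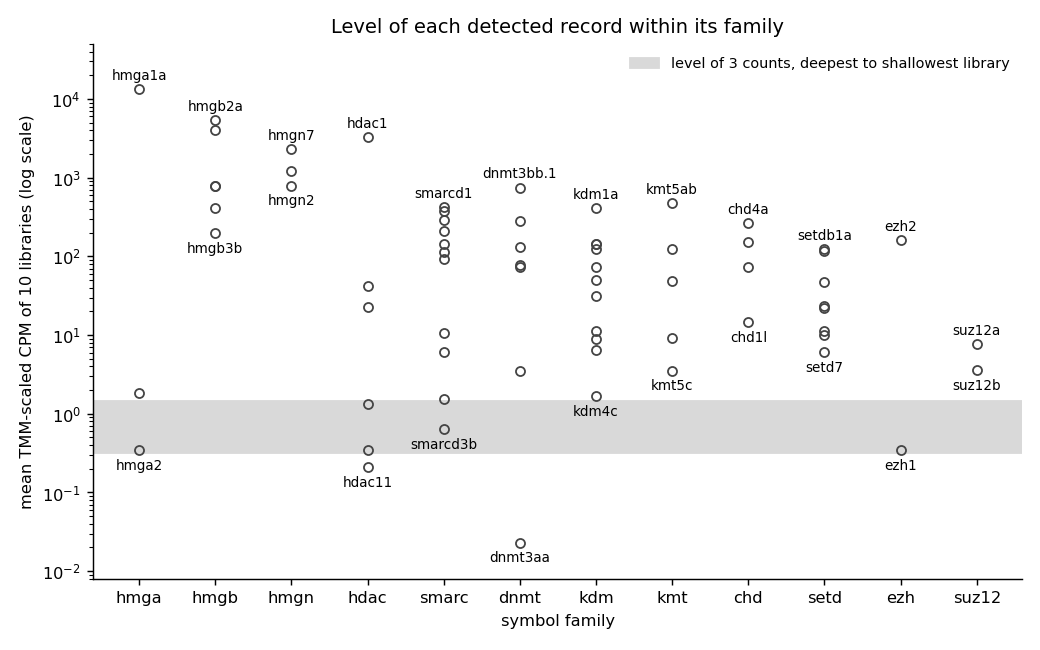
Mean TMM-scaled CPM over 10 libraries (log axis) of each of the 68 records with at least 1 count, by family, with the highest and lowest named; the grey band spans the level of 3 counts, between 0.318 and 1.47 CPM. *hmga1a* lies at 13471 CPM, far above *hmga1b* and *hmga2*, and *dnmt3aa* is the lowest at 0.0231 CPM.

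The contrast asked which of these transcripts differ in somite progenitors with the caged *spadetail* morpholino, and none passed in the fits run here. The authors' deposited edgeR comparison called 2 of the 58 members that it listed, *dnmt3bb.1* and *smarca4a*, both higher in spt_cMO. Over all 6923 records that it listed, 3.58% were called. It used a likelihood ratio statistic, unlike the fits run here, and the labels do not give its model. Its log2 fold changes for the 2 genes were 0.364 and 0.375. They were 0.358 and 0.370 in the fit with a replicate block, and 0.386 and 0.363 without. With a replicate block *dnmt3bb.1* and *smarca4a* had adjusted p of 0.057 and 0.0534, against 0.475 and 0.379 without (edgeR's quasi-likelihood test). Of the 73 records, 58 passed the filter on low counts, and 0 rose and 0 fell at an adjusted p of 0.05 (edgeR's quasi-likelihood test, Benjamini-Hochberg over all 6570 tested records). Over all tested records 1.78% were called, 0.807% higher and 0.974% lower in spt_cMO, a share at which 1.03 of 58 records would be called. A fit with a replicate block called 0 members higher and 0 lower, where it called 2.75% of all tested records, 1.34% higher and 1.42% lower. DESeq2 also called 0 members in either direction, against 2.57% of all tested records, 1.26% higher and 1.31% lower. At an unadjusted p of 0.05, 2 members were higher and 0 lower, where 9.44% of all tested records passed, 4.6% higher and 4.84% lower, a share at which 5.47 of 58 would. The groups did not overlap in 0 members, against 3.06% of all tested records. The median log2 fold change was 0.03 over the tested members and 0.00 over all tested records, and 53.4% and 50.3% of them were above 0.

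The 95% intervals of the fold changes limit what could have been missed. For 45 of the 58 tested members the interval lay within 1.5-fold either way, against 63% of all tested records. For 56 members it lay within 2-fold, against 90.7% of all tested records. The 2 members beyond 2-fold were *dnmt3ab* and *kdm6bb*, both of low level. These intervals take no account of the replicate number. With a replicate block the SE of *dnmt3ab* was 0.32, against 0.83 without, and that of *kdm6bb* 0.25, against 0.28. In simulated counts for 6570 records with the depths and means of these libraries, the test recovered 48% of records changed 1.5-fold and 88% of those changed 2-fold. The changed records were drawn at random from all of these and not from the members. The simulated libraries were independent and had no effect of the replicate number. Recovery among members alone was not simulated, and a smaller difference in a member may have gone undetected at this depth.

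**Figure D3:**
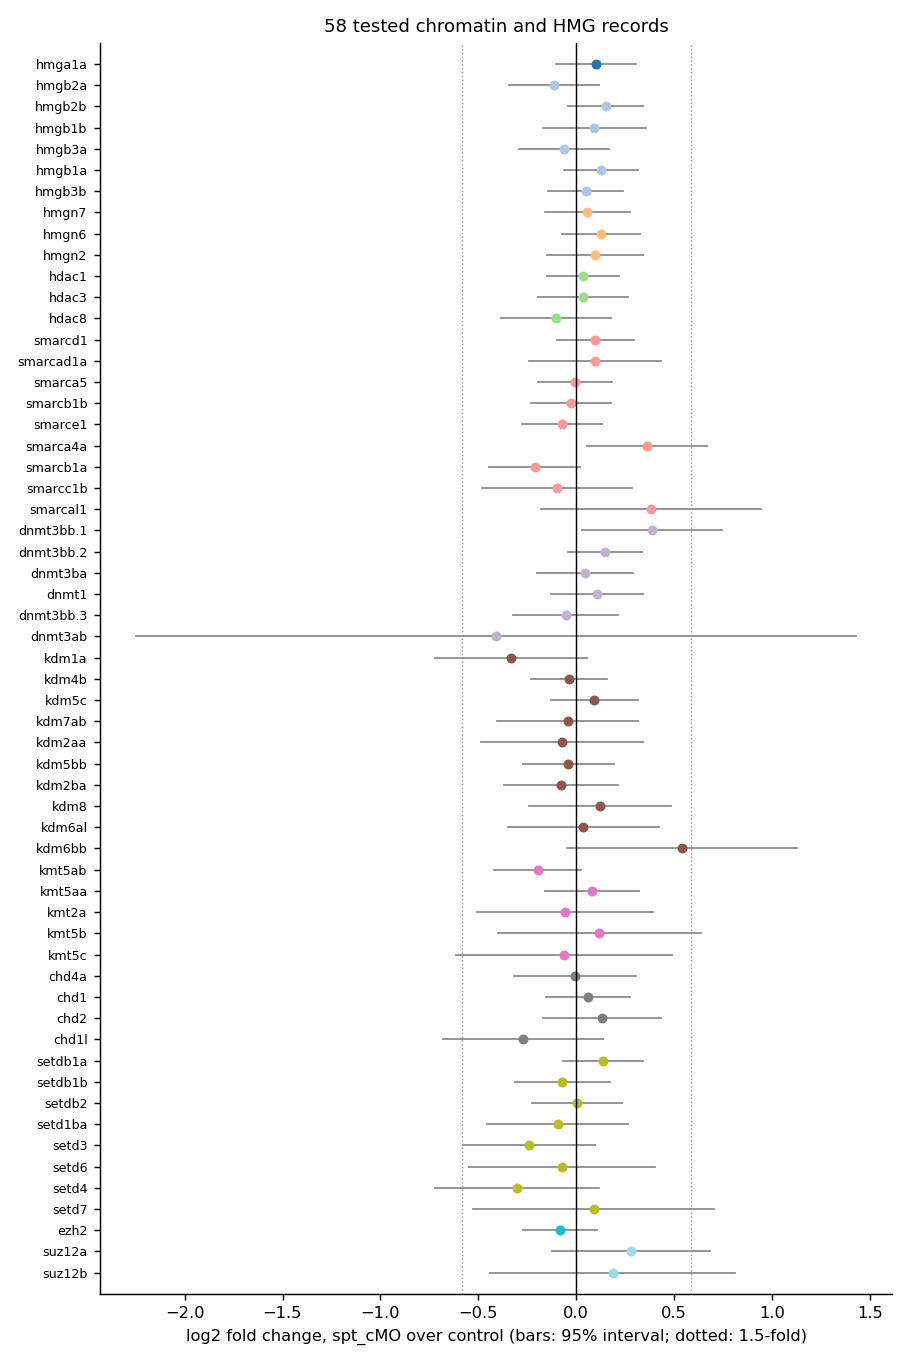
Log2 fold change of spt_cMO over control for the 58 tested records, coloured and grouped by family, with dotted lines at 1.5-fold. Bars give the 95% interval of edgeR's quasi-likelihood fit without a replicate block. The unadjusted intervals of *smarca4a* and *dnmt3bb.1* lie above 0, the other 56 include 0, and the widest is that of *dnmt3ab*, from -2.25 to 1.43.

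Of the HMG genes, *hmga1a* had 12513, 14824, 14485, 12942 and 14914.5 CPM in spt_cMO libraries 1 to 5, against 13216, 11626, 11431, 14997 and 13762 CPM in control libraries 1 to 5. The highest library of all was a control and 2 controls were the lowest, so the groups overlapped. It averaged 13936 CPM ± 1125 in spt_cMO and 13006 CPM ± 1497 in control (SD, n = 5 each), a log2 fold change of 0.10 with a 95% interval from -0.10 to 0.30 (adjusted p = 0.875, edgeR's quasi-likelihood test). In absolute level this was still the widest gap among the members: their summed level was 39282 CPM ± 1323 in spt_cMO and 37828 CPM ± 971 in control (SD, n = 5 each), and the *hmga1a* means differ by 929 CPM of that net 1453 CPM, or 64%. The ranges of the summed level overlapped, from 38069.9 to 41227 CPM in spt_cMO and from 36817 to 39341 CPM in control.

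The pair *hmgb2a* and *hmgb2b* encode HMG-box proteins that bend DNA and are abundant in dividing cells. *hmgb2a* had 5509.5, 5312, 5617, 5374 and 4219 CPM in spt_cMO libraries 1 to 5, against 4607, 6027, 6721, 5352 and 5422 CPM in control libraries 1 to 5. *hmgb2b* had 3970.1, 3932, 4698, 4165 and 4580.1 CPM in spt_cMO, against 3658, 4379.9, 3849, 3675 and 3681 CPM in control. Control replicate 3 was the highest for *hmgb2a* and spt_cMO replicate 3 for *hmgb2b*, and the groups overlapped for both. The estimates had opposite signs, -0.11 (SE 0.11) for *hmgb2a* and 0.15 (SE 0.09) for *hmgb2b*, and neither passed (adjusted p = 0.875 and 0.705, edgeR's quasi-likelihood test). The *hmgb2a* part of the pair was 54.9% ± 4.11 in spt_cMO and 59.2% ± 2.87 in control (SD, n = 5 each), with ranges that overlap between 55.7% and 58.1%. Their means differed by -419.7 CPM and 420.5 CPM, and the hmgb total was 11688 CPM ± 579 in spt_cMO and 11629 CPM ± 829 in control. The other 4 hmgb genes, *hmgb1a*, *hmgb1b*, *hmgb3a* and *hmgb3b*, had log2 fold changes between -0.06 and 0.13. Closely related copies may share reads, and how the authors' counting divided such reads is not given in the sources used here.

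None of the nucleosome-binding genes passed. *hmgn7* averaged 2367 CPM ± 195 in spt_cMO and 2275 CPM ± 307 in control (SD, n = 5 each). *hmgn6* averaged 1266 CPM ± 29.3 in spt_cMO and 1161 CPM ± 145 in control, and *hmgn2* 819.5 CPM ± 137 in spt_cMO and 767 CPM ± 77.9 in control. Their log2 fold changes were 0.06, 0.12 and 0.10. The spread of *hmgn6* was small in spt_cMO, where its libraries ran from 1231 to 1303 CPM, and wider in control, from 1016 to 1354 CPM.

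Among the remodelling ATPases and their partners, *smarca4a* had the smallest p of all members. It encodes the Brg1 ATPase of the SWI/SNF complex. Its level was 151, 127, 122, 141 and 105 CPM in spt_cMO libraries 1 to 5, against 136, 96.4, 75.2, 113 and 85.0 CPM in control libraries 1 to 5. Each spt_cMO library lay above the control of the same number, but only 2 lay above every control. The means were 129 CPM ± 17.6 in spt_cMO and 101 CPM ± 24.0 in control, 1.29-fold (95% interval 1.04 to 1.59, log2 fold change 0.36, SE 0.15), with an unadjusted p of 0.023 (adjusted p = 0.379, edgeR's quasi-likelihood test). With a replicate block the log2 fold change was 0.37 (SE 0.10, adjusted p = 0.0534 in the same test). Its adjusted p ran from 0.0534 to 0.677 over the alternatives. In the authors' deposited table *smarca4a* had a log2 fold change of 0.37 and an adjusted p of 0.0433.

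None of the other remodeller genes reached an unadjusted p of 0.05. *smarcd1*, which encodes a BAF60 subunit, averaged 442 CPM ± 20.0 in spt_cMO and 414 CPM ± 45.4 in control (log2 fold change 0.10, SE 0.09). *smarca5*, the ISWI ATPase gene, averaged 288 CPM in both groups (SD 24.1 in spt_cMO and 18.4 in control). The SNF5 subunit genes *smarcb1a* and *smarcb1b* had log2 fold changes of -0.21 and -0.03. *smarcb1a* was named after its values were seen, since 4 of its 5 spt_cMO libraries lay below every control: 74.1, 72.4, 106, 82.7 and 89.3 CPM in spt_cMO, against 97.3, 94.9, 103, 95.6 and 100.4 CPM in control (adjusted p = 0.605, edgeR's quasi-likelihood test). *smarcal1*, whose human counterpart is an annealing helicase of stalled replication forks, was low, at 6.81 CPM ± 2.60 in spt_cMO and 5.38 CPM ± 1.58 in control, with a log2 fold change of 0.38 (SE 0.27). *chd4a*, the ATPase gene of the nucleosome remodelling and deacetylase complex NuRD, averaged 264 CPM ± 48.2 in spt_cMO and 266 CPM ± 51.1 in control (SD, n = 5 each), and the other 3 chd genes, *chd1*, *chd2* and *chd1l*, had log2 fold changes of 0.06, 0.13 and -0.27. The remaining smarc genes, *smarcad1a*, *smarce1* and *smarcc1b*, lay between -0.10 and 0.10.

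DNA methyltransferase genes differed from each other in how their libraries spread. *dnmt3bb.1*, 1 of 3 related de novo methyltransferase copies, had 802, 642, 1199, 956 and 649.6 CPM in spt_cMO libraries 1 to 5, against 609, 551, 836, 617 and 642 CPM in control libraries 1 to 5. Replicate 3 was the highest and replicate 2 the lowest in both groups, and all 5 spt_cMO libraries lay above the control of the same number, for number 5 by a small margin. The means were 849.7 CPM ± 234 in spt_cMO and 651 CPM ± 109 in control, 1.31-fold (95% interval 1.02 to 1.67), with an unadjusted p of 0.0364 (adjusted p = 0.475, edgeR's quasi-likelihood test). With a replicate block the log2 fold change was 0.36 (SE 0.10, against 0.17 without, adjusted p = 0.057 in the same test). Its adjusted p ran from 0.057 to 0.761 over the alternatives. In the authors' deposited table it had a log2 fold change of 0.36 and an adjusted p of 0.0296.

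This gene made up 56.1% of the dnmt total, which averaged 1437 CPM ± 246 in spt_cMO and 1203 CPM ± 122 in control. The copies *dnmt3bb.2* and *dnmt3bb.3* had log2 fold changes of 0.15 and -0.05, and *dnmt3ba* 0.04. *dnmt1*, the maintenance methyltransferase gene, averaged 80.7 CPM ± 8.35 in spt_cMO and 75.1 CPM ± 8.60 in control (log2 fold change 0.11, SE 0.11). Since the *dnmt3bb* copies are closely related, single values may be shifted by how reads were divided between them.

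*dnmt3ab* varied more between replicate numbers than between groups. It had 0.743, 2.94, 7.75, 0.261 and 5.23 CPM in spt_cMO libraries 1 to 5, from 7, 6, 21, 1 and 13 counts. In control libraries 1 to 5 it had 1.01, 2.75, 6.83, 0.851 and 7.06 CPM, from 4, 22, 23, 4 and 51 counts. Numbers 1 and 4 were low, number 2 intermediate and numbers 3 and 5 high in both groups. The labels do not say what a number shares. The log2 fold change was -0.41 with an interval from -2.25 to 1.43 (adjusted p = 0.951, edgeR's quasi-likelihood test). With a replicate block it was -0.20 (SE 0.32, adjusted p = 0.895 in the same test).

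**Figure D4:**
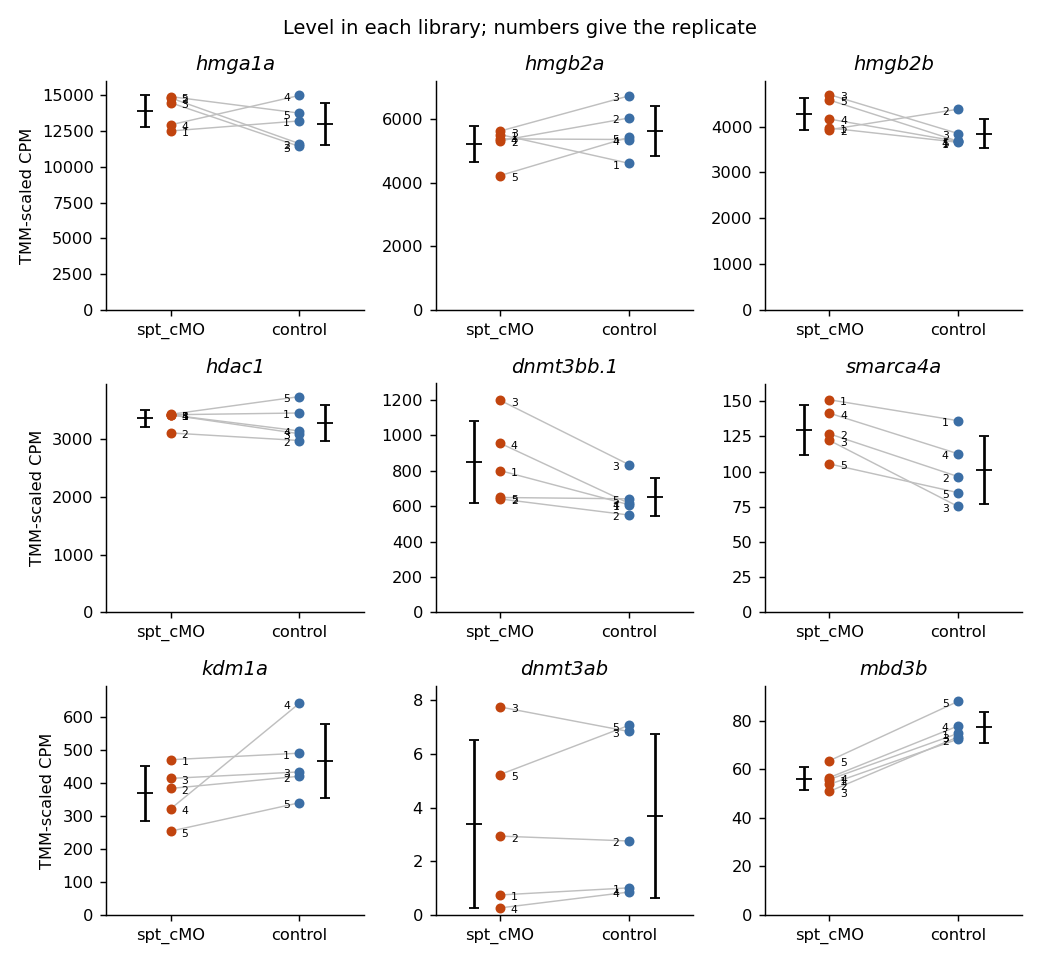
TMM-scaled CPM in each library (points, numbered by replicate; grey lines join the same number) for 9 genes, with spt_cMO left of control and the mean ± SD of 5 libraries beside each group. The groups overlap in the 8 member genes, *dnmt3ab* is low in numbers 1 and 4 and high in numbers 3 and 5 of both groups, and *mbd3b*, which is not a member, is lower in all 5 spt_cMO libraries (50.9 to 63.6 CPM) than in any control (72.5 to 88.0 CPM).

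Genes for histone demethylases summed to 959 CPM ± 109.6 in spt_cMO and 1056 CPM ± 161 in control (SD, n = 5 each), a gap smaller than the SD in either group. Of the 10 tested kdm genes 4 had a log2 fold change above 0, and the median was -0.04. Nearly all of the gap in the sum, -96.5 of -97.2 CPM, came from *kdm1a*, which encodes the demethylase LSD1 acting on histone H3 lysine 4. It had 470.2, 383, 414, 321 and 254 CPM in spt_cMO libraries 1 to 5, against 490.1, 420.2, 433, 641 and 339.8 CPM in control libraries 1 to 5. All 5 spt_cMO libraries lay below the control of the same number, 3 of them narrowly, and the groups overlapped. The log2 fold change was -0.33 (SE 0.18, 95% interval -0.72 to 0.05, adjusted p = 0.651 in edgeR's quasi-likelihood test). With a replicate block the estimate was the same and the SE 0.13 (adjusted p = 0.263 in the same test). The authors' deposited edgeR comparison gave *kdm1a* a log2 fold change of -0.33 and an adjusted p of 0.18. *kdm6bb*, a gene for a demethylase of histone H3 lysine 27, had the largest log2 fold change among the tested members, 0.54 (SE 0.28), at 8.70, 11.7, 4.43, 8.87 and 4.02 CPM in spt_cMO, against 5.29, 6.76, 6.54, 3.83 and 3.88 CPM in control (adjusted p = 0.605, edgeR's quasi-likelihood test). The other 8 tested kdm genes had log2 fold changes between -0.08 and 0.12.

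Deacetylase and histone methyltransferase genes did not pass. *hdac1* had 3429, 3113, 3427, 3426 and 3436 CPM in spt_cMO libraries 1 to 5, against 3459, 2982, 3099, 3148 and 3743 CPM in control libraries 1 to 5. Its log2 fold change was 0.03 with a 95% interval from -0.15 to 0.22, and *hdac3* and *hdac8* stood at 0.03 and -0.10. *kmt5ab*, which encodes the enzyme that places a first methyl group on histone H4 lysine 20, averaged 446 CPM ± 42.3 in spt_cMO and 511 CPM ± 67.9 in control (log2 fold change -0.20, SE 0.11, adjusted p = 0.631 in edgeR's quasi-likelihood test). Its paralog *kmt5aa* averaged 128 CPM ± 17.8 in spt_cMO and 121 CPM ± 13.5 in control, and *kmt2a*, *kmt5b* and *kmt5c* had log2 fold changes between -0.06 and 0.12. The histone H3 lysine 9 methyltransferase genes *setdb1a* and *setdb1b* averaged 129 CPM ± 11.8 and 114 CPM ± 15.8 in spt_cMO, against 118 CPM ± 8.54 and 120.5 CPM ± 14.2 in control. The other 6 setd genes had log2 fold changes between -0.30 and 0.09.

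The PRC2 genes did not pass either. *ezh2* had 155, 169, 166, 145 and 150.0 CPM in spt_cMO libraries 1 to 5, against 178, 174.5, 157, 166 and 154 CPM in control libraries 1 to 5, with a log2 fold change of -0.08 (95% interval -0.27 to 0.11). *suz12a* averaged 8.43 CPM ± 0.981 in spt_cMO and 7.13 CPM ± 1.31 in control, and *suz12b* 3.77 CPM ± 1.18 in spt_cMO and 3.42 CPM ± 1.31 in control, both with intervals that include 0.

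Some further members had the same lowest library number in both groups, which was noticed after their values were seen. Replicate 5 was the lowest in both groups in 9 of 58 tested members (15.5%), against 6.38% of all tested records: *chd4a*, *chd1*, *chd1l*, *kdm1a*, *kdm7ab*, *kmt2a*, *setd1ba*, *setdb1b* and *smarca5*. *kmt2a*, a gene for a methyltransferase of histone H3 lysine 4, had 47.9, 64.6, 58.7, 42.8 and 26.1 CPM in spt_cMO libraries 1 to 5, against 67.8, 51.4, 46.4, 47.5 and 36.5 CPM in control libraries 1 to 5. The order of its other numbers differed between the groups. Any number was the lowest in both groups in 20 members (34.5%) and the highest in both in 16 (27.6%), against 26.1% and 25.6% of all tested records. For 7 members (12.1%) both the lowest and the highest number were shared, against 7.79% of all tested records. Between libraries of the same number, 6 members (10.3%) had 1 direction in all 5 pairs, against 11.8% of all tested records. Of these, *dnmt3bb.1*, *dnmt3bb.2*, *smarca4a* and *hmgb1a* were higher in spt_cMO in each pair (6.9%, against 5.77% of all tested records), and *kdm1a* and *chd1l* were lower (3.45%, against 6.04%).

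Other chromatin regulators were taken from a list of partners of these complexes, acetyltransferases, readers, histone chaperones and histones. Of 246 symbols listed, 170 records matched and 145 were tested: 0 rose, 1 fell and 144 did not pass, against 1.78% called over all tested records, and a replicate block gave the same counts. At an unadjusted p of 0.05, 6 of the 145 were higher and 5 lower, where 4.6% of all tested records were higher and 4.84% lower. The most abundant, the nucleolar chaperone gene *npm1a*, the histone H3.3 genes *h3f3a* and *h3f3d* and the histone chaperone gene *anp32e*, had log2 fold changes between -0.10 and 0.04.

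The 1 that fell was *mbd3b*, a gene for a methyl-CpG-binding-domain subunit of NuRD. It had 55.8, 53.8, 50.9, 56.6 and 63.6 CPM in spt_cMO libraries 1 to 5, against 74.8, 72.5, 73.4, 77.9 and 88.0 CPM in control libraries 1 to 5. All 5 spt_cMO libraries lay below every control. The log2 fold change was -0.46 (SE 0.10, 95% interval -0.68 to -0.25; adjusted p = 0.022, edgeR's quasi-likelihood test). The adjusted p ran from 0.00199 to 0.164 over the alternatives, and the call was lost without spt_cMO replicate 1, 3 or 4 or control replicate 4 or 5, with adjusted p of 0.0657, 0.0732, 0.0566, 0.057 and 0.0853. The NuRD genes *chd4a* and *hdac1* had log2 fold changes of -0.01 and 0.03. Of the 145 tested regulators the groups did not overlap in 3 (2.07%), against 3.06% of all tested records: *mbd3b*, *mta2* and *rcor2*, the last 2 named after their values were seen. *mta2*, a further NuRD gene, ran from 155 to 193 CPM in spt_cMO and from 124 to 154 CPM in control (log2 fold change 0.21, adjusted p = 0.495 in edgeR's quasi-likelihood test). *rcor2*, a gene for a CoREST partner of LSD1, ran from 96.4 to 111 CPM in spt_cMO and from 85.0 to 92.3 CPM in control (log2 fold change 0.23, adjusted p = 0.347 in the same test).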

How the data were processed

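CEL-seq libraries of sorted cells were analysed, 5 spt_cMO and 5 control. The authors deposited raw read counts per RefSeq record. Alignment was to Zv8, with custom scripts in Galaxy, per the design text of the series; the aligner, the counter and its use of strand are not given in the sources used here. The authors also deposited their own edgeR comparison, per the submitters' processing notes, with a log2 fold change, a likelihood ratio score and p-values per record and no values per library; it listed 6923 records, 58 of them members, and called 3.58% at an adjusted p of 0.05, 2 members among them.

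Names were taken from RefSeq's gene table of GRCz12tu, which matched 13986 of 14720 records; records without a symbol took 1.4% to 1.62% of the counts and were tested with the rest. The analysis used edgeR 4.0.16 (R 4.3.3): filterByExpr (minimum count 10, minimum total 15, minimum proportion 0.7), TMM scaling, and the robust quasi-likelihood test of group, 2-sided, with Benjamini-Hochberg adjustment over 6570 records. CPM values are TMM-scaled. Standard errors come from the F statistic. The test was tried on simulated data, where it made 173 calls, 8 of them of unchanged records. Alternatives were DESeq2 1.42.0, other scalings and filters, thinning to 2036973 counts, a replicate block and leaving out each library.

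The labels give both groups the numbers 1 to 5. Taken as deviations from the group mean, libraries with the same number correlated at 0.135, 0.251, 0.119, 0.203 and 0.147. All lay above the 0.1 set for treating numbers as pairs, so the block is given beside the calls and for some single genes. Against this, spt_cMO replicate 1 and control replicate 3 correlated better with another number of the other group, at 0.196 and 0.144. The p-values, intervals and calls are from the fit without the block unless it is named. The labels call the libraries biological replicates. Members named by rule were those with an adjusted or unadjusted p under 0.05, the highest of each family with its a or b paralog, and the 5 with the largest fold change. Other members given with values, such as *hmgn6*, *smarca5*, *dnmt1* and *kmt2a*, fall outside this rule. Members and lists were chosen with earlier results of these data known.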

Additional observations from a re-analysis of the deposited data

Results flagged for a closer look

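Among 70 groups of 5 libraries, 1 per named gene or family and condition, 6 had 1 library whose gap to its nearest neighbour took up more than 0.71 of the group's range, where chance gives about 1 in 20. The level of *hmgb2a* in spt_cMO replicate 5 was 4219 CPM, the lowest of its group, with the next at 5312 CPM. That of *hmgb2b* in control replicate 2 was 4379.9 CPM, the highest, with the next at 3849 CPM. *hdac1* in spt_cMO replicate 2 was at 3113 CPM, with the next at 3426 CPM, and the hdac total there was 3179 CPM, which is mostly the same gene. *suz12b* in control replicate 4 was at 5.75 CPM, with the next at 3.00 CPM. The kmt total in spt_cMO replicate 5 was 555 CPM, with the next at 648 CPM.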

How the results depend on the processing

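The count of members called was 0 in each direction in all 18 alternatives run. Over all records the main counts were 53 higher and 64 lower; DESeq2 gave 83 higher and 86 lower, the replicate block 88 higher and 93 lower, and thinning all libraries to the smallest total 21 higher and 36 lower. The single call among other chromatin regulators, that of *mbd3b*, was lost with thinning (0) and ranged from 0 to 1 without single libraries. The replicate block changed no call of a member or of another chromatin regulator, and among the tissue markers it added *mespab* and *tbx16*. Log2 fold changes that did not pass turned sign in 3 genes. *chd4a* was at 0.016 with upper quartile scaling and between -0.12 and 0.075 without single libraries. *hmgn7* ranged from -0.0047 (without control replicate 4) to 0.10 without single libraries. *dnmt3ab*, at -0.41 with all libraries, ranged from -1.08 to 0.052 without single libraries. The cause was not tested. The difference in the setd total, -1.04 CPM, was 1.55 CPM on unscaled totals, and the differences in the hmgb, chd and setd totals changed sign without single libraries. Between these settings no family total moved by as much as the SD between libraries of its group. This is not so between groups. The suz12 totals differed by 1.64 CPM, against SDs of 1.54 CPM in spt_cMO and 1.12 CPM in control. The summed level of all members differed by 1453 CPM, against SDs of 1323 and 971 CPM. In other families the difference exceeded the SD of 1 group only. The dnmt totals differed by 234 CPM, against SDs of 246 CPM in spt_cMO and 122 CPM in control. For hmgn the difference was 249 CPM, against 135 and 414 CPM. For kmt it was -59.3 CPM, against 45.7 and 77.8 CPM. The ranges of the groups overlapped in each of these. Depth limits the members under 10 CPM most, since 3 counts equal up to 1.47 CPM.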
